A study of Mus musculus with 15 samples.

Results

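The SLAM family receptors are a group of immunoglobulin-like surface molecules of blood cells. 8 of their genes, out of 53465 in the count matrix, are described here, namely Cd48, Cd84, Ly9, Slamf1, Slamf6, Slamf7, Slamf8 and Slamf9. They were chosen by gene family name, with earlier results of these data known, so their levels and tests are a description of how far they moved and no independent evidence about the family. Cd244a, the 9th receptor of the family, is outside that list, and its values are given beside those of its ligand Cd48. Bone marrow-derived macrophages (BMDMs) are macrophages grown from mouse marrow with M-CSF, here at 20 ng/ml for 7 days in every group, control included. The 5 groups were control BMDMs without added cytokine, and BMDMs that had received, for 24 h, 10 ng/ml of IL-4, 40 ng/ml of IL-13, or either of these at that dose together with 40 ng/ml of IL-6 (called IL-4/IL-6 and IL-13/IL-6), with 3 replicate libraries in each. IL-4 and IL-13 were thus given at different doses, and there was no group with IL-6 alone. The methods describe the marrow donors as mice of 8 to 12 weeks. They do not say separately which mice were used for the sequenced cells, nor whether the replicates of a group came from different animals. The study calls the IL-4 and the IL-4/IL-6 libraries biological replicates without defining the term, so p-values are read as measuring the spread between these libraries.

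Most SLAM family receptors bind the same receptor on a neighbouring cell, while Cd48, which is held in the membrane by a lipid anchor, binds Cd244. The tails of Cd244, Ly9, Slamf1, Slamf6, Slamf7 and Cd84 carry tyrosine switch motifs. Depending on the receptor, these recruit the small adaptor SAP (Sh2d1a), the small adaptor EAT-2 (Sh2d1b1) or both, and through them kinases or phosphatases. Slamf8 and Slamf9 have short tails without such motifs. In macrophages the family is known for roles in phagocytosis, in handling of bacteria and in limiting activation.

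Summed counts were between 17001352 and 18918686 per library, and 13938 genes, all 8 receptors among them, passed the filter on low counts. Slamf1 passed it through the control and IL-4/IL-6 libraries, the groups in which each library held more than 10 of its counts. All 8 macrophage markers examined, Adgre1, Csf1r and Cd68 among them, held at least 131 counts in every library, but their sum differed between groups: 18900 to 21100 normalised CPM in control, 14300 to 14800 in IL-4, 17100 to 19800 in IL-13, 10900 to 12700 in IL-4/IL-6 and 13900 to 14800 in IL-13/IL-6. Lyz2 makes up most of it. IL-4 lowered 5 of the 8 (Csf1r, Mertk, Fcgr1, Lyz2 and Cd14), where 35.9% of all tested genes were called lower, and raised Cd68, where 32.1% were called higher. Mertk went from 142.5 ± 12.2 to 8.27 ± 1.11 (SD, n = 3 each). The part of these shifts in the values of the receptors was not tested. IL-4/IL-6 replicate 2 and IL-13 replicate 1 stood apart from their replicates, with a mean chi-square per gene of 17.1 to 46.7 against them, beside 2.68 to 4.1 between control or IL-4 libraries. Without the first, Cd84 was called in the test of the difference between both IL-6 effects (adjusted p = 0.0427), and without the second, Cd48 lost its call on adding IL-6 to IL-13 (adjusted p = 0.127). Retnla, a gene induced by IL-4 and IL-13, rose in every cytokine group, and Socs3, a gene induced by IL-6 signalling, rose from 1.69 ± 0.49 to 128.7 ± 12.5 normalised CPM (counts on library sizes scaled by TMM factors to a common total) on adding IL-6 to IL-4 and from 1.27 ± 0.34 to 106.9 ± 2.4 on adding it to IL-13 (SD, n = 3 each). The control libraries also held transcripts of other blood cells. The 8 granulocyte genes examined, which include Elane, Mpo and S100a8, summed to 460 to 547 normalised CPM in control and to 0.979 to 2.14 in the cytokine groups, and Elane fell from 415 to 476 counts per control library to at most 11. The 5 megakaryocyte and platelet genes summed to 371 to 416 normalised CPM in control, 70.4 to 89.7 in IL-4 and IL-13, and 175 to 422 in the IL-6 groups. Pf4 made up nearly all of this sum in the cytokine groups, with means of 234.8 in IL-4/IL-6 and 390.1 in IL-13/IL-6 beside 97.4 in control. Ppbp rose on adding IL-6 but stood at 2.80 and 4.16 beside 165.9 in control. Itga2b stood at 1.67 and 1.68 beside 114.0, and Gp1bb and Gp9 held at most 4 counts in each library of the IL-6 groups. The 6 B cell genes summed to 11.3 to 12.5 in control and to at most 1.69 elsewhere, the 8 T cell genes to 25.4 to 30.5 and at most 1.13, and the 5 basophil and mast cell genes to 14.2 to 16 and at most 2.19. Cd4, which is also made by other cells than T cells, carried 27.1 ± 2.8 normalised CPM of the T cell sum in control (SD, n = 3), while the T cell receptor genes Cd3d, Cd3e, Cd3g and Trac held at most 4 counts in any library. The 7 dendritic cell genes summed to 299 to 335 in control, 311 to 354 in IL-4, 192 to 212 in IL-13 and 46.3 to 62.2 in the IL-6 groups. Itgax makes up most of this sum in every group, with a mean of 289.4 in control. In the cytokine groups Ccr7 and Flt3 held at most 4 counts in each library, while Zbtb46 was called lower than control with IL-13 and IL-13/IL-6 only. The 6 NK cell genes summed to at most 0.75 normalised CPM in any library. SLAM receptors are made by many of these cells, so falls from control below stand beside these falls, and the part that other cells play in them was not tested. In bulk RNA, fewer cells of a type and less RNA per cell cannot be told apart.

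The genes lie together on chromosome 1 (GRCm38), spread with Cd244a over 1.03 Mb at chr1:171559193-172590568. Cd244a, Ly9, Slamf7, Cd48, Slamf1, Cd84 and Slamf6 stand in that order within 394 kb, and Slamf9 and Slamf8 stand within 115 kb at the far end, behind 14 other protein-coding genes. Exons of Slamf7 share 423 bases with Gm37787, a gene on the other strand. Whether reads were counted by strand is not stated for these files, so those reads cannot be assigned for certain, and no exon of the other receptors overlaps another gene. RefSeq promoters (GRCm38.p6) were found for 8 of the 9 genes, Ly9 being the exception. Within 250 bases before each start, 4 patterns of letters were searched on both strands. TTCNNNNGAA, the spacing favoured by STAT6, the factor downstream of IL-4 and IL-13, was in 5.85% of 32851 RefSeq promoters and in Slamf1 alone of the family. TTCNNNGAA, the spacing of other STAT factors, was in 7.02% of all promoters and in none of the 8. TGANTCA, the AP-1 site, was in 6.75% of all promoters and in those of Slamf7, Cd84 and Cd244a. GAGGAA, the core read by the macrophage factor PU.1, was in 23.3% of all promoters and in that of Slamf9. These are matches of letters and were not tested for binding. The promoters of the 4 receptors whose transcripts moved most on adding IL-6 to IL-4 are printed 5′ to 3′ on the gene's strand, up to the base before the start, with matches to these patterns in capitals.
Slamf1 (chr1:171766882-171767131, plus strand): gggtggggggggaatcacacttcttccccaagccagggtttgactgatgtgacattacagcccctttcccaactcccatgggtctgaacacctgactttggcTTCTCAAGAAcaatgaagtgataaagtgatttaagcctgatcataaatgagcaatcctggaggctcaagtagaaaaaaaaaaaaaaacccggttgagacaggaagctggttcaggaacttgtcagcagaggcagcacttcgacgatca
Slamf7 (chr1:171649000-171649249, minus strand): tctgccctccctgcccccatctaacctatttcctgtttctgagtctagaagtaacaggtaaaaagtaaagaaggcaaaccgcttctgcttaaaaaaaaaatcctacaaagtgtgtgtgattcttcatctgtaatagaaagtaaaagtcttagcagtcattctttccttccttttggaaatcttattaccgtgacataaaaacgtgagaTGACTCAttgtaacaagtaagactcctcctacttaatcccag
Slamf9 (chr1:172475110-172475359, plus strand): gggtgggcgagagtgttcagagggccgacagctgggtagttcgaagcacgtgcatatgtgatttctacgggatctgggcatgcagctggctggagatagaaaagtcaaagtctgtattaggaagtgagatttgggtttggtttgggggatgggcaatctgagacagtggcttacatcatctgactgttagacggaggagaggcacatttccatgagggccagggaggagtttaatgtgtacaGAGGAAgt
Cd244a (chr1:171558943-171559192, plus strand): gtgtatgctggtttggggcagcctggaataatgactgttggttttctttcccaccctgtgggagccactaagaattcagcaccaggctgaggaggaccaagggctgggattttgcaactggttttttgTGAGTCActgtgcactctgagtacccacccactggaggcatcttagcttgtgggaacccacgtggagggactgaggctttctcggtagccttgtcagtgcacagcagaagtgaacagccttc
In Slamf1 the capitals stand 148 to 139 bases before the start, in Slamf7 they stand 42 to 36 bases before it, in Slamf9 8 to 3 bases and in Cd244a 122 to 116 bases. The Slamf7 stretch lies inside the GENCODE span of the gene, which runs to chr1:171653035 on the minus strand. Its distances therefore hold for the RefSeq start only.

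Per kilobase of transcript, Cd48, Cd84 and Ly9 were the most abundant members in each of the 5 groups, in that order, and Slamf1 and Slamf6 the least. In control, Cd48 stood at 157.7 ± 4.9 FPKM, Cd84 at 112.8 ± 1.0, Ly9 at 104.1 ± 5.6 and Slamf7 at 36.6 ± 0.9 (SD, n = 3), and each library's value lay above all those of the next gene. Slamf8 (6.49 ± 1.57 FPKM) and Slamf9 (5.39 ± 0.55) overlapped in control, and Slamf1 (0.684 ± 0.037) and Slamf6 (0.306 ± 0.049) followed. The order below Ly9 differed between groups. Slamf7 was the fourth in control, the fifth in IL-13 and IL-13/IL-6 and the sixth in the IL-4 groups with or without IL-6, and Slamf9 was the fourth in IL-4, IL-13 and IL-13/IL-6. Slamf7 and Slamf8 overlapped in IL-4 and IL-13/IL-6. The FPKM of the 8 members summed to 412.8 to 437.2 in the control libraries, 277.5 to 293.8 in IL-4, 270.1 to 294.4 in IL-13, 226 to 234.4 in IL-13/IL-6 and 172.1 to 182 in IL-4/IL-6. Cd48 made up 37.2% of that sum in control and 46.7% to 49.1% in the cytokine groups, while Slamf7 went from 8.64% to between 0.594% and 1.92%.

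**Figure D1:**
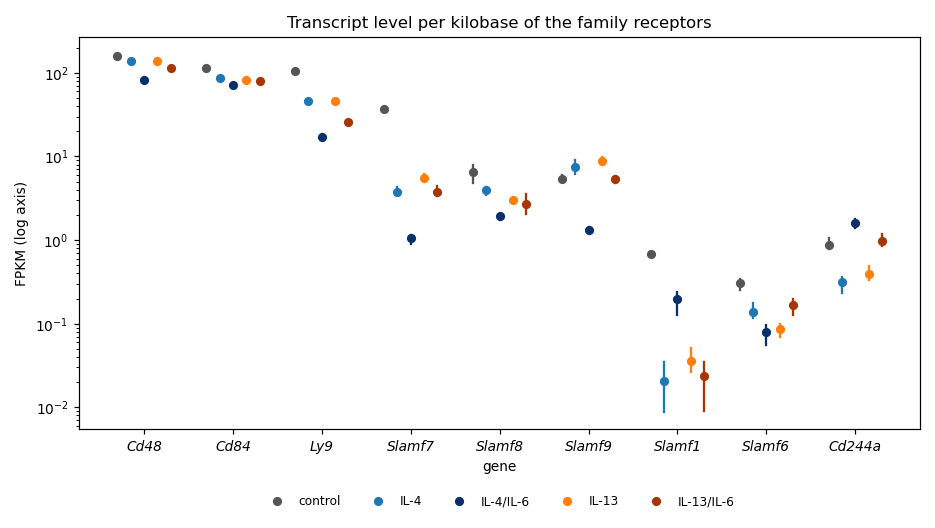
FPKM of each receptor (log axis) in the 5 groups. Points are group means and vertical lines run from the lowest to the highest of 3 libraries. Cd48, Cd84 and Ly9 have means of at least 17.2 FPKM in all groups, and no library of Slamf1 or Slamf6 exceeds 0.726.

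Compared with control, IL-4 lowered most of the receptors. Slamf1, Slamf6, Slamf7, Slamf8, Ly9 and Cd84 fell (6 of 8, where 35.9% of all tested genes were called lower), Slamf9 rose (1 of 8, where 32.1% of all genes were called higher), and Cd48 was not called. IL-13 gave the same calls, against 31.1% of all genes lower and 29.0% higher. The median log2 fold change of the 8 members was -0.89 with IL-4 and -1.10 with IL-13, beside -0.05 and -0.02 for all tested genes. When IL-6 accompanied IL-4, all 8 members were below control (37.5% of all genes were called lower and 35.4% higher), with a median of -1.71 beside -0.05. With IL-13/IL-6, 7 of 8 were below control (32.1% of all genes lower and 31.9% higher), Slamf9 being the exception, and the median was -0.96 beside -0.01. Of these 7, Slamf6 lost its call without control replicate 3 (edgeR adjusted p = 0.0607) or without IL-13/IL-6 replicate 2 (0.0742). These 4 comparisons share the control libraries. The share of genes called was large throughout, so a call by itself sets few genes apart here.

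**Figure D2:**
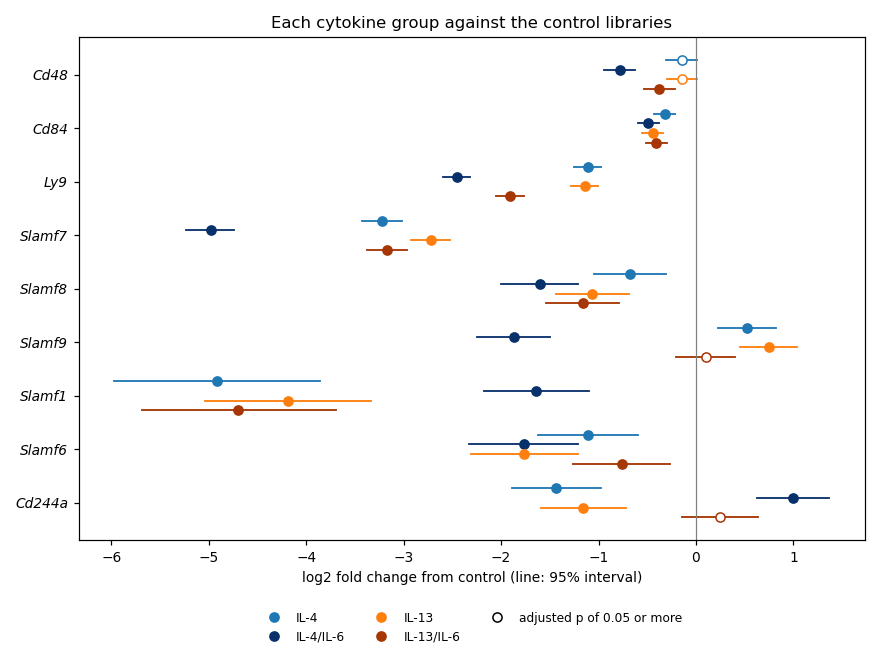
Log2 fold change from control for each receptor in the 4 cytokine groups, with 95% intervals and open points where the adjusted p was 0.05 or more. Slamf7 and Slamf1 lie farthest to the left with IL-4, IL-13 and IL-13/IL-6, Slamf7 and Ly9 with IL-4/IL-6, and the point of Slamf9 lies to the right of 0 except with IL-4/IL-6.

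On adding IL-6 to IL-4, Slamf7, Slamf8, Slamf9, Ly9, Cd48 and Cd84 fell (6 of 8, where 18.7% of all genes were called lower), Slamf1 rose (1 of 8, where 20.7% were called higher) and Slamf6 was not called. The median log2 fold change of the 8 members was -0.79 beside 0.04 for all genes. On adding IL-6 to IL-13, Slamf7, Slamf9, Ly9 and Cd48 fell (4 of 8, where 13.5% of all genes were called lower), Slamf6 rose (1 of 8, where 12.1% were called higher) and Slamf1, Slamf8 and Cd84 were not called. Here the median was -0.35 beside 0.01. The difference between the effect of IL-6 with IL-13 and its effect with IL-4 was itself tested, and 6 of 8 members were called (7.64% of all genes were called in either direction). For Slamf7, Slamf9, Ly9, Cd48 and Slamf6 the IL-6 effect was higher, that is less of a fall or more of a rise, on the IL-13 base, and for Slamf1 it was lower. The direct comparison of IL-13 with IL-4 called Slamf7 alone among the members, where 12.8% of all genes were called in either direction. Granulocyte, B cell and T cell genes summed to at most 2.14, 1.69 and 1.13 normalised CPM in the 4 cytokine groups compared here. Pf4, Ppbp and Itgax moved with IL-6, and Gata2, which made up most of the basophil and mast cell sum in IL-4, fell on adding IL-6 to IL-4 from 27 to 39 counts per library to 3 to 5 (log2 -3.07 ± 0.51, adjusted p = 1.85e-05). The macrophage markers split: on adding IL-6 to IL-4, Adgre1, Mertk and Fcgr1 rose and Csf1r, Cd68, Itgam, Lyz2 and Cd14 fell, and on adding it to IL-13, Adgre1, Fcgr1 and Itgam rose and Csf1r and Lyz2 fell. The part of all these genes' cells of origin was not tested.

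**Figure D3:**
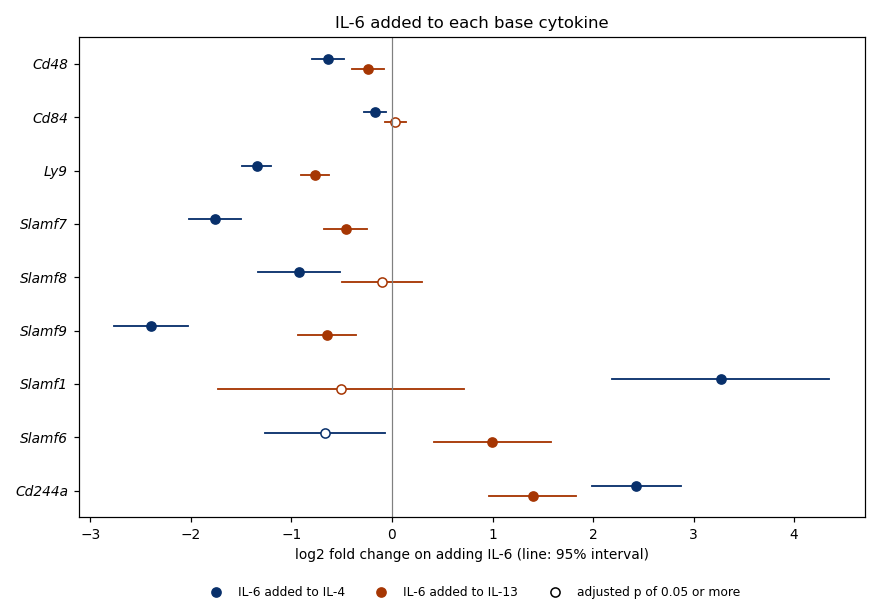
Log2 fold change of each receptor on adding IL-6 to IL-4 (blue) and to IL-13 (brown), with 95% intervals and open points where the adjusted p was 0.05 or more. Ly9, Slamf7, Slamf9 and Cd48 lie to the left of 0 on both bases, Cd244a lies to the right on both, and Slamf1 and Slamf6 differ between the bases.

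Cd48, the ligand of Cd244 and, with lower affinity, of Cd2, was the steadiest of the abundant members after Cd84. Its counts in replicates 1 to 3 were 3354, 3390 and 3140 in control, 3045, 2791 and 3101 in IL-4, 3308, 2866 and 2893 in IL-13, 1733, 2011 and 1674 in IL-4/IL-6, and 2455, 2453 and 2509 in IL-13/IL-6. The libraries with IL-6 lay below all those without it. IL-4/IL-6 left 64.3% of the IL-4 level, a log2 fold change of -0.64 ± 0.08 (SE, edgeR adjusted p = 6.26e-06). IL-13/IL-6 left 85.0% of the IL-13 level (-0.23 ± 0.08, adjusted p = 0.0423). That second call was lost in 8 of the 22 settings in which it was computed, among them the fits without IL-13 replicate 1 (adjusted p = 0.127) and without IL-13/IL-6 replicate 2 (0.123). The difference between both effects was 0.40 ± 0.11 (adjusted p = 0.0402), and it was past the threshold in 10 of 22 settings.

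Cd244a, which encodes the receptor for Cd48, went the other way. Its transcript was scarce, with group means of 0.315 to 1.60 FPKM beside 82.6 to 157.7 for Cd48. Cd244a held 94, 67 and 67 counts in the control libraries, 33, 20 and 31 in IL-4, 31, 41 and 31 in IL-13, 124, 150 and 154 in IL-4/IL-6, and 78, 78 and 107 in IL-13/IL-6. Every library with IL-6 lay above every library of its base cytokine, and those with IL-4/IL-6 lay above control as well. IL-4 and IL-13 lowered it to 37.0% and 44.9% of control (adjusted p = 3e-05 and 0.000234). Adding IL-6 raised it 5.39-fold over IL-4 (log2 2.43 ± 0.22, adjusted p = 6.94e-08) and 2.64-fold over IL-13 (1.40 ± 0.22, adjusted p = 8.83e-05). The difference between these rises was -1.03 ± 0.31 and was not called (adjusted p = 0.0564). Ly9 lies inside the span of Cd244a on the other strand and shares no exon bases with it. The other receptor of Cd48 in mice, Cd2, did not pass the filter.

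Slamf7 (CRACC), which on macrophages takes part with the integrin Mac-1 in engulfing blood-derived tumour cells, had the largest falls among the well-counted members. The control libraries held 2981, 2988 and 2873 counts, IL-4 362, 285 and 303, IL-4/IL-6 94, 77 and 93, IL-13 414, 487 and 461, and IL-13/IL-6 275, 306 and 374. The groups are separate, except that IL-4 and IL-13/IL-6 share a range. IL-4 left 10.7% of the control level (log2 fold change -3.22 ± 0.10) and IL-13 15.2% (-2.72 ± 0.10), with edgeR adjusted p of 1.61e-13 and 1.49e-12. Slamf7 stood 1.42-fold higher in IL-13 than in IL-4 (0.50 ± 0.11, adjusted p = 0.00482). IL-6 took it down a further 3.39-fold on IL-4 (-1.76 ± 0.13, adjusted p = 6.41e-09) but 1.38-fold on IL-13 (-0.46 ± 0.11, adjusted p = 0.0044). These effects differed by 1.30 ± 0.17 (adjusted p = 8.59e-05). IL-4/IL-6 cells thus kept 3.16% of the control transcript and IL-13/IL-6 cells 11.1%.

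Ly9 (CD229), a receptor that binds itself and restrains innate-like lymphocytes, fell by steps. Its counts were 5964, 6342 and 5833 in control, 2880, 2701 and 2831 in IL-4, 2940, 2572 and 2830 in IL-13, 1568, 1460 and 1680 in IL-13/IL-6, and 1002, 1043 and 1076 in IL-4/IL-6. Libraries of IL-4 and IL-13 overlapped, and all other groups were separate. Either cytokine alone lowered Ly9 to a like degree, to 46.3% of control with IL-4 and 45.3% with IL-13 (log2 -1.11 ± 0.07 and -1.14 ± 0.07, adjusted p = 4.34e-10 and 4.17e-10). The difference between them was -0.03, with a 95% interval of -0.17 to 0.11. Adding IL-6 left 39.3% of the IL-4 level (-1.35 ± 0.07, adjusted p = 1.18e-10) and 58.8% of the IL-13 level (-0.77 ± 0.07, adjusted p = 2.53e-07), and these effects differed by 0.58 ± 0.10 (adjusted p = 0.00126).

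Cd84, another receptor that binds itself, held the most counts of the family and varied least, its highest group mean being 1.41-fold the lowest in normalised CPM. The counts were 12999, 12229 and 12084 in control, 10360, 9636 and 9901 in IL-4, 8985, 9475 and 9341 in IL-13, 8322, 8490 and 8230 in IL-4/IL-6, and 8737, 9530 and 9176 in IL-13/IL-6. All cytokine libraries were below all control libraries, and by normalised CPM the IL-13 libraries overlapped with every other cytokine group. IL-4 left 80.1% of the control level and IL-13 73.6% (log2 -0.32 ± 0.05 and -0.44 ± 0.05, adjusted p = 6.77e-05 and 2.52e-06). IL-6 lowered it to 88.8% of the IL-4 level (-0.17 ± 0.05, adjusted p = 0.0198). On IL-13 the change was 0.04, with a 95% interval of -0.07 to 0.14. The difference between both effects was 0.21 ± 0.08 and was not called (adjusted p = 0.14), though it was in 5 of 22 settings.

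Slamf1 (CD150), which on macrophages recognises bacterial membrane proteins and enters the phagosome, was scarce in every group and was the member that IL-6 raised with IL-4. It held 74, 78 and 70 counts in control, 4, 2 and 1 in IL-4, 3, 3 and 6 in IL-13, 1, 3 and 4 in IL-13/IL-6, and 27, 15 and 25 in IL-4/IL-6. The IL-4/IL-6 libraries thus lay between control and the other cytokine groups and overlapped with neither. From summed counts, the level in control was 31.7-fold that in IL-4 (exact 95% interval for counting error 15.1 to 79.8) and 18.8-fold that in IL-13 (10.5 to 36.9). IL-4/IL-6 stood 10.1-fold above IL-4 (4.66 to 26.2) by the same measure and at 32.0% of control (log2 -1.64 ± 0.28). In the fit the rise over IL-4 was 3.27 ± 0.55 (adjusted p = 1.3e-05). Slamf1 passed the filter on low counts through the control and IL-4/IL-6 libraries, so its fitted values and calls are a description only. With IL-13 the change on adding IL-6 was -0.51 ± 0.62, with a 95% interval of -1.73 to 0.71, and the difference between both effects was -3.78 ± 0.83 (adjusted p = 0.00476).

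Slamf6 (Ly108), a receptor best known on T, B and NK cells, was also scarce. The counts were 50, 60 and 64 in control, 35, 23 and 23 in IL-4, 20, 13 and 19 in IL-13, 11, 20 and 17 in IL-4/IL-6, and 38, 26 and 36 in IL-13/IL-6. All cytokine libraries lay below control, and IL-6 went with lower counts on IL-4 and higher counts on IL-13. IL-4 left 46.5% of control (log2 -1.11 ± 0.26, adjusted p = 0.00115) and IL-13 29.5% (-1.76 ± 0.28, adjusted p = 3.16e-05). The rise on adding IL-6 to IL-13 was 2.00-fold (1.00 ± 0.29, adjusted p = 0.0163), and it lost its call without IL-13 replicate 2 (adjusted p = 0.0741) or without IL-13/IL-6 replicate 1 or 3 (0.079 and 0.0571). The value on IL-4 was -0.66 ± 0.31 (adjusted p = 0.0931). Both values differed by 1.66 ± 0.42 (adjusted p = 0.0193), a call that was lost on leaving out IL-4 replicate 1, IL-4/IL-6 replicate 1, IL-13 replicate 2 or IL-13/IL-6 replicate 1 (adjusted p = 0.0512 to 0.0667). The B cell genes Cd79a, Cd79b, Ms4a1 and Pax5 were called lower than control in all 4 cytokine groups. So was Cd4, which is also made by other cells than T cells. Lck, the other T cell gene tested, was called lower than control only in the IL-13 group, and no NK cell gene passed the filter. The part of such cells in the Slamf6 values was not tested.

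Slamf8 and Slamf9, the receptors with short tails, had unlike patterns. Slamf8, which restrains the oxidative burst and movement of macrophages, held 270, 425 and 354 counts in control, 246, 189 and 224 in IL-4, 183, 165 and 162 in IL-13, 98, 116 and 113 in IL-4/IL-6, and 138, 117 and 203 in IL-13/IL-6. IL-4/IL-6 had the lowest mean, and the IL-13/IL-6 libraries overlapped with it and with IL-13 by normalised CPM. IL-4 left 62.5% of control (log2 -0.68 ± 0.19, adjusted p = 0.00427) and IL-13 47.8% (-1.07 ± 0.19, adjusted p = 0.000139). Adding IL-6 left 52.7% of the IL-4 level (-0.92 ± 0.21, adjusted p = 0.00152), while on IL-13 the change was -0.10, with a 95% interval of -0.50 to 0.30. The difference between them was 0.83 ± 0.29 and was not called (adjusted p = 0.103).

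Slamf9 was the member that IL-4 and IL-13 raised. It held 122, 138 and 113 counts in control, 176, 144 and 217 in IL-4, 238, 194 and 204 in IL-13, 137, 117 and 136 in IL-13/IL-6, and 31, 32 and 33 in IL-4/IL-6. Each IL-4 and IL-13 library lay above each control library, those of IL-13/IL-6 overlapped with control, and those of IL-4/IL-6 lay far below. The rise was 1.44-fold with IL-4 (log2 0.52 ± 0.15, adjusted p = 0.00552) and 1.68-fold with IL-13 (0.75 ± 0.15, adjusted p = 0.000355). IL-6 lowered it 5.26-fold on IL-4 (-2.39 ± 0.19, adjusted p = 7.94e-09) and 1.57-fold on IL-13 (-0.65 ± 0.15, adjusted p = 0.00324), and these effects differed by 1.75 ± 0.24 (adjusted p = 0.000111). IL-4/IL-6 cells ended at 27.3% of control, and IL-13/IL-6 cells at 107% with an interval of -0.20 to 0.40 on the log2 scale.

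**Figure D4:**
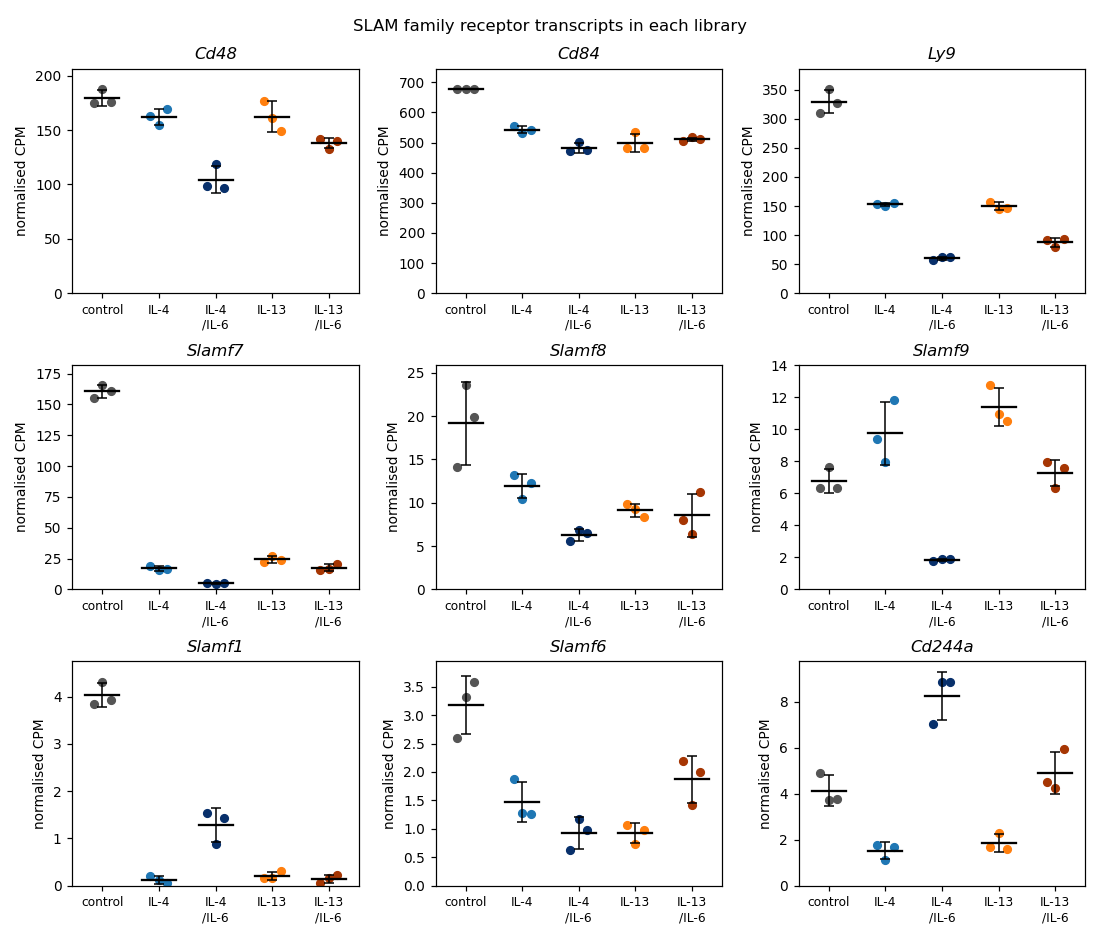
Normalised CPM of each receptor in the 15 libraries (points, linear axes from 0), with group means (bars) and SD. IL-4/IL-6 has the lowest group mean for Cd48, Cd84, Ly9, Slamf7, Slamf8, Slamf9 and Slamf6, and the highest for Cd244a.

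Of 18 genes that act with these receptors, 15 passed the filter. The list holds adaptors, kinases and phosphatases, partners in phagocytosis, partners of Slamf1 and Cd2. On adding IL-6 to IL-4, 4 rose and 5 fell (20.7% and 18.7% of all genes did), and on adding it to IL-13, 5 rose and 4 fell (12.1% and 13.5% of all genes). Their median log2 fold change was 0.02 and 0.04, beside 0.04 and 0.01 for all genes. Compared with control, 3 rose and 8 fell with IL-4, where 32.1% and 35.9% of all genes did, and 2 rose and 8 fell with IL-13, where 29.0% and 31.1% did.

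Among the adaptors, Sh2d1a and Sh2d1b2 held at most 3 counts in each library of all 5 groups. Sh2d1b1 (EAT-2), the adaptor of the family that these cells did express, held 312 to 335 counts in the control libraries, 37 to 67 in IL-4, 40 to 64 in IL-13, 13 to 16 in IL-13/IL-6 and 3 in each IL-4/IL-6 library. Its groups followed the order of Ly9, and the IL-4/IL-6 libraries stood at the limit of detection. From summed counts, IL-4 stood 17-fold above IL-4/IL-6 (exact 95% interval for counting error 8.73 to 37.8), and IL-13 stood 3.52-fold above IL-13/IL-6 (2.51 to 5.03). Both falls were called (log2 -4.03 ± 0.49 and -1.81 ± 0.28, adjusted p = 6.79e-08 and 4.08e-05), and they differed by 2.22 ± 0.56 (adjusted p = 0.00992).

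Itgb2, which encodes the common chain of the leukocyte integrins and pairs with Itgam as Mac-1, fell from 1554 ± 37 to 491.8 ± 18.4 normalised CPM on adding IL-6 to IL-4 and from 1494 ± 32 to 724.2 ± 37.9 on adding it to IL-13 (log2 -1.66 ± 0.05 and -1.05 ± 0.05, adjusted p = 2.84e-13 and 1.61e-10). Itgam fell on IL-4 and rose on IL-13 (log2 -0.31 ± 0.06 and 0.35 ± 0.06, adjusted p = 0.000972 and 0.000441). Tyrobp (DAP12), an adaptor of activating receptors, fell from 499.4 ± 17.3 to 263.1 ± 47.0 and from 503.8 ± 72.4 to 375.8 ± 26.0 normalised CPM (adjusted p = 3.07e-06 and 0.00837). Fcer1g, the common chain of Fc receptors, was called on neither base. Itgb2 and Tyrobp were thus the partner genes of Slamf7 that fell on both bases.

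Ptpn6, the phosphatase SHP-1, fell on both bases (log2 -0.74 ± 0.07 and -0.29 ± 0.07, adjusted p = 2.15e-07 and 0.00478). Inpp5d, the lipid phosphatase SHIP-1 that carries inhibitory signals of Slamf7, rose on both (0.66 ± 0.09 and 0.37 ± 0.09, adjusted p = 1.45e-05 and 0.00512). Vav1, an exchange factor downstream of the receptors, rose from 120.4 ± 2.3 to 203.1 ± 8.7 and from 161.6 ± 3.8 to 283.1 ± 16.0 normalised CPM (adjusted p = 1.49e-08 and 1.14e-08). The kinase Fyn rose as well (0.18 ± 0.06 and 0.57 ± 0.06, adjusted p = 0.0215 and 9.57e-07). Uvrag, a partner of Slamf1 on the phagosome, also rose on both (0.63 ± 0.08 and 0.27 ± 0.08, adjusted p = 5.6e-06 and 0.0173), whereas Becn1 and Pik3c3 were called on neither base.

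The 25 protein-coding neighbours of the family, those between the outermost receptor genes and 3 beyond each end, included 18 tested genes. On adding IL-6 to IL-4, 1 rose and 4 fell, where 20.7% and 18.7% of all genes did, with a median log2 fold change of -0.02 beside 0.04 for all genes. With IL-13, 1 rose and 4 fell on adding IL-6, where 12.1% and 13.5% of all genes did, with a median of -0.12 beside 0.01. Of the genes next to a member, Vangl2, a polarity gene beside Slamf6, fell on both bases (log2 -0.79 ± 0.26 and -0.81 ± 0.27, adjusted p = 0.0208 and 0.0357), unlike Slamf6. Igsf9, beside Slamf9, fell with IL-4 (-2.57 ± 0.41, adjusted p = 2.54e-05) from 2.09 to 0.346 normalised CPM, near the Slamf9 value of -2.39, and was not called with IL-13 (-0.50 ± 0.30, adjusted p = 0.264). Those effects on Igsf9 differed by 2.07 ± 0.51 (adjusted p = 0.0136). Gm10521, between Cd84 and Slamf6, Pigm on the other side of Slamf9, and Vsig8 beside Slamf8 were not called on either base (adjusted p = 0.0647 to 0.891).

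**Figure D5:**
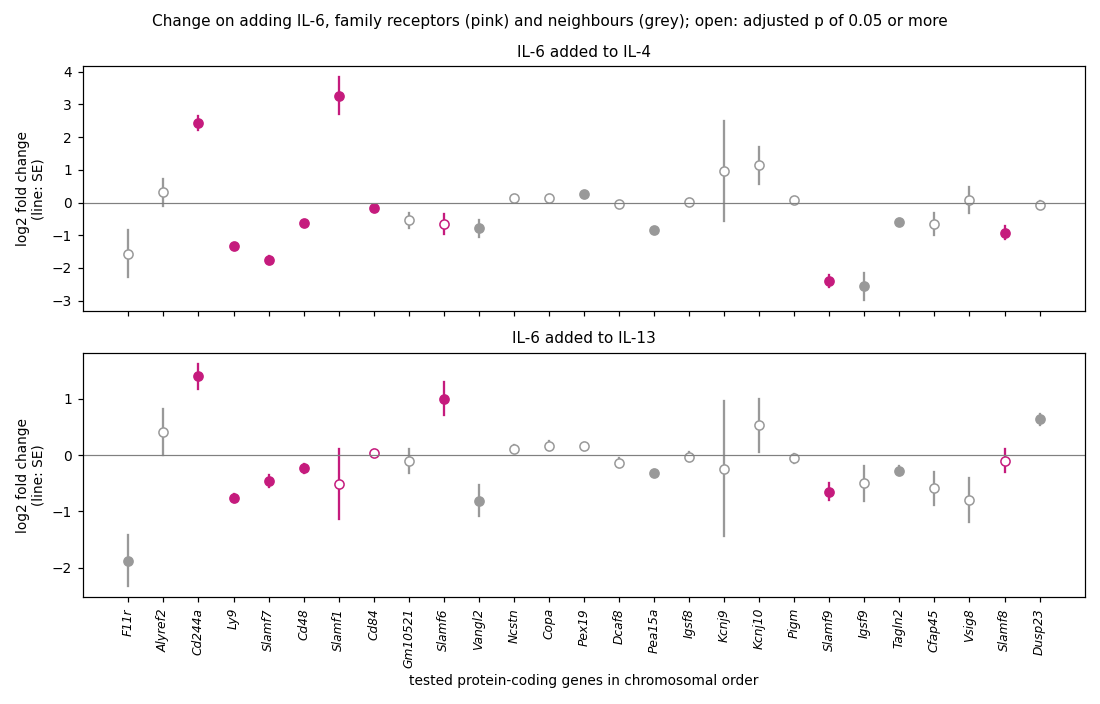
Log2 fold change on adding IL-6 to IL-4 (top) and to IL-13 (bottom), with SE, for the tested protein-coding genes in chromosomal order. Family receptors are pink and neighbours grey, open points have an adjusted p of 0.05 or more, and adjacent receptors such as Ly9 and Cd244a lie on opposite sides of 0.

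For each member, the genes with the most similar pattern were sought by Pearson's r of log2 CPM over the 15 libraries. The libraries fall into 5 groups, so r mostly reads the group means, and it is given as a description. Slamf7 went with Il10ra, a chain of the IL-10 receptor (r = 0.996), and Ptprc, the phosphatase CD45 (0.993). Ly9 went with Axl, a receptor for apoptotic cells (0.994), and Nr1h3, the sterol sensor LXRα (0.992). Cd48 went with Tyrobp (0.981) and Clec5a, a lectin that signals through it (0.969). Slamf9 went with Tubb2a, a tubulin (0.981), and Prkch, a protein kinase C (0.971). Slamf8 went with Map1lc3a, an autophagy protein (0.94), and Cd1d1, which presents lipids (0.936). Slamf6 went with Crat (0.914) and Nkiras2 (0.902), Slamf1 with Mrgpre (0.972) and Wdr91 (0.971), and Cd84 with Gm13212 (0.962) and P2rx4, an ATP receptor (0.961). Among the receptors themselves, Slamf7 and Ly9 were the most alike (0.941), and Slamf9 and Cd244a the least (-0.812).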

How the data were processed

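RNA of 15 BMDM libraries in 5 groups of 3 was sequenced by a service company. The authors deposited raw counts per gene for 53465 Ensembl identifiers, and lists of FPKM values per library for 26080 genes. CASAVA, Bowtie2 2.2.3, HISAT2 2.1.0, TopHat2, DESeq2 and the build GRCm38 are named in the submitters' processing notes; which of them made the counts, the annotation and the strand setting are not given in the sources used here. The deposited FPKM values imply the exonic lengths of GENCODE M21 for all 9 family genes, so its positions were used.

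Counts were analysed across all genes with edgeR 4.0.16 in R 4.3.3 in 1 fit of all 15 libraries: filterByExpr (minimum count 10), TMM factors, the quasi-likelihood F-test and Benjamini-Hochberg adjustment over the 13938 genes tested. A gene was called at an adjusted p under 0.05. SE come from the fitted model and 95% intervals are 1.96 SE to either side. Exact intervals for summed counts and all intervals on counts cover counting error only. Levels are means ± SD of normalised CPM or of FPKM. A count of at most 3 was taken as the limit of detection. Depth was 17001352 to 18918686 counts per library. Chi-square values were computed between libraries of 1 group only, and no such pair agreed within sampling noise.

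The members and all gene lists were chosen with earlier results of these data known. Named genes are the 9 receptors, list genes called on both IL-6 comparisons or adaptors, tested genes next to a member, and the 2 most alike genes per member. Other list genes are also named outside this rule, among them markers of macrophages and other cells such as Mertk, Cd14, Cd68 and Gata2, and were chosen after their values were seen. The alternatives were DESeq2 1.42.0, upper-quartile factors, no filter, minimum count 30, a replicate block, fits of the compared groups alone, leaving out each library, and, chosen after seeing the data, leaving out the control libraries. The full genotype of the marrow donors and 1 gene fixed as a check of the stimulation are not reported here.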

Additional observations from a re-analysis of the deposited data

Results flagged for a closer look

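For 6 receptors the effect of adding IL-6 differed between the IL-13 and the IL-4 base in an interaction test (IL-13 effect minus IL-4 effect, log2 scale, edgeR across all genes, of which 7.64% were called in either direction). The difference was -3.78 for Slamf1, 1.66 for Slamf6, 1.30 for Slamf7, 1.75 for Slamf9, 0.58 for Ly9 and 0.40 for Cd48. The calls of Slamf1, Slamf7, Slamf9 and Ly9 held in all 22 settings, that of Slamf6 in 18 and that of Cd48 in 10. IL-4 and IL-13 were given at different doses, so the dose and the cytokine cannot be told apart.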

How the results depend on the processing

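Of 72 pairs of a receptor and a comparison, Cd244a included, 63 kept the same call under all settings, and no called value changed sign. The number of members that IL-6 raised over IL-13 was 0 to 1 when libraries were left out, since it rests on Slamf6. Genes called between IL-13 and IL-4 numbered 1779, and 1088 to 2915 when single libraries were left out. Deviations of same-numbered libraries from their group means had r of -0.276 to 0.163 over 30 pairs, 3 of them over 0.1. Libraries with unlike numbers were not compared, so these values cannot decide whether same-numbered libraries were paired. A replicate block left Cd48 uncalled on adding IL-6 to IL-13 (log2 -0.23, adjusted p = 0.0621) and in the interaction (0.41, adjusted p = 0.0595). Without the control libraries Cd48 was also uncalled in both (adjusted p = 0.0528 and 0.0629), and without the low-count filter in the first (0.0583). Cd48 was called lower in IL-4 than in control when those groups alone were fitted (adjusted p = 0.031). Slamf6 was not called below control in IL-13/IL-6 without control replicate 3 (adjusted p = 0.0607) or IL-13/IL-6 replicate 2 (0.0742). The interaction of Cd84, Slamf8 and Cd244a was called in 5, 2 and 3 of 22 settings. The cause was not tested. Of the 40 positions of members by FPKM, 20 were the same by normalised CPM, which takes no account of length. Ranking by Spearman's rho changed at least 1 of the 2 most alike genes of each member but Slamf6. Slamf1, Slamf6, Cd244a and Sh2d1b1 are limited by their low counts.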
